A study of Mus musculus with 18 samples.

Results

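The DNA replication and S-phase genes are a set of 51 genes that carry out or control the copying of DNA. They were chosen by name from what they are known to do, with earlier results of these data known. Shares of members set against all tested genes below therefore do not come from a choice blind to the data. Genes were kept where at least 10 counts were present in at least 3 libraries. All 51 listed genes met that rule and all were tested, out of 23420 genes in the table and 10630 tested. In the least abundant members few libraries reached 10 counts, namely 5 of 18 for Gins1 and E2f1, 6 for Orc1, 7 for Ccne2, 8 for E2f8 and 9 for Mcm10. These 6 met the rule only with effector libraries counted, so a higher effector level in them is partly fixed by the rule, while the other 45 met it in resting libraries alone.

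RNA-seq was done on sorted mouse regulatory T cells, CD4 T cells that restrain other immune cells. The labels give 3 genotypes, FCre x C1+/+, FCre x C1fl/+ and FCre x C1fl/fl, called +/+, fl/+ and fl/fl here, so FCre is common to all 18 libraries. They do not spell out FCre or C1, and sources used here do not give the gates of the sort, the sex or the age. Each genotype was sampled as resting and as effector cells, the latter being cells with an activated phenotype, in batches 1, 2 and 3, which gives 6 groups of 3 libraries. Values for single libraries are listed below in the order of these batch numbers, which are also the replicate numbers. The labels do not say that replicates come from separate animals, so p-values measure only the spread between these samples.

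A cell that is about to divide first licenses its origins: the origin recognition complex, Cdc6 and Cdt1 load a ring of MCM proteins, the future helicase, onto DNA. At the start of S phase Cdc45 and the GINS complex switch the helicase on, primase and polymerases copy both strands around a sliding clamp, and enzymes of nucleotide synthesis keep the building blocks in supply. E2F transcription factors, released when cyclin E and its kinase act on the retinoblastoma protein, are known to switch on many of these genes late in G1. Most mature T cells in lymphoid tissue are out of cycle, and activated regulatory T cells include dividing cells.

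The depth was 1658073 to 5756903 expected counts a library (median 3154386). Markers are given as sums of CPM, the count scaled to a common total by the TMM-adjusted library size. The 4 regulatory T cell markers Foxp3, Il2ra, Ctla4 and Ikzf2 all passed the filter on low counts. As a sum they tended to be higher in effector cells and lower in fl/fl, with overlap between some groups, and no sum was tested. They summed to 1032 to 1305 CPM in resting and 1320 to 1897 CPM in effector libraries of +/+, to 929.5 to 1113 and 1220 to 1420.1 CPM in fl/+, and to 789 to 883 and 881 to 1234 CPM in fl/fl. The 4 T cell markers Cd3d, Cd3e, Cd3g and Cd4 summed to 2149 to 2265 and 2666 to 2774 CPM in +/+, 2120 to 2195 and 2409 to 2853 CPM in fl/+, and 2235 to 2363 and 2186 to 2513 CPM in fl/fl. Markers of other cells were lower. The 7 myeloid genes in the table summed to 63.6 to 69.1 CPM in resting and 93.1 to 104 CPM in effector libraries of +/+, to 68.7 to 85.5 and 69.2 to 98.9 CPM in fl/+ and to 73.1 to 84.1 and 73.8 to 77.9 CPM in fl/fl. The 4 plasma cell genes in the table, of which Irf4, Xbp1 and Prdm1 are also expressed by activated T cells, summed to 116 to 177 and 212 to 306 CPM in +/+, 148 to 163 and 234 to 269.8 CPM in fl/+, and 141 to 166 and 181 to 225 CPM in fl/fl. The 6 dendritic cell genes summed to 2.54 to 4.34 and 5.17 to 8.46 CPM in +/+, 2.15 to 5.12 and 5.79 to 8.54 CPM in fl/+, and 2.98 to 5.41 and 3.02 to 8.09 CPM in fl/fl. The 6 CD8 or NK genes summed to 44.0 to 94.2 CPM over all libraries, and of the 3 tested 1 rose and 2 fell from resting to effector in +/+ and in fl/+, and 1 rose in fl/fl. The 8 B cell genes summed to 9.64 to 97.5 CPM with overlap of the states in each genotype. Of the red cell genes 2 were at 0 in every library and the 4 in the table summed to at most 1.69 CPM. The part of other cells in the results below was not tested.

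The replication genes were more abundant in effector than in resting cells of each genotype. Their summed level differed most between the states in fl/fl and least in +/+, while no member passed the test of a genotype difference in the state change, given further below. Summed over the 51 genes, resting libraries held 1758, 1710.1 and 1669 CPM in +/+, 1607, 1738 and 1682 CPM in fl/+ and 1760.1, 1550.4 and 1675 CPM in fl/fl. Effector libraries held 2105, 2179 and 2510.4 CPM in +/+, 2319.5, 2599 and 2658 CPM in fl/+ and 2626, 3083 and 3157 CPM in fl/fl. Every effector sum lay above every resting sum. The group means were 1712 ± 44.7, 1676 ± 65.8 and 1662 ± 105 CPM in resting cells and 2265 ± 216, 2525 ± 181 and 2955 ± 288 CPM in effector cells (SD, n = 3 each). The ratio of effector to resting within a batch was 1.2, 1.27 and 1.5 in +/+, 1.44, 1.5 and 1.58 in fl/+, and 1.49, 1.99 and 1.88 in fl/fl. In RNA from a whole sorted population, fewer cells expressing a gene and less of its RNA per cell cannot be told apart.

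Among effector libraries +/+ replicate 3 stood apart from its group. It held the highest value of its group in 38 of 51 members, with a sum of 2510 CPM where the other replicates held 2105 and 2179 CPM. The 20 mitosis genes of a separate list, such as Mki67, Top2a and Ccnb1, behaved alike, with sums of 201, 218 and 587 CPM in the +/+ effector libraries. In fl/fl effector cells replicate 1 was the lowest of its group in summed CPM (2626 against 3083 and 3157 CPM) and the highest in 1 of 51 members.

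**Figure D1:**
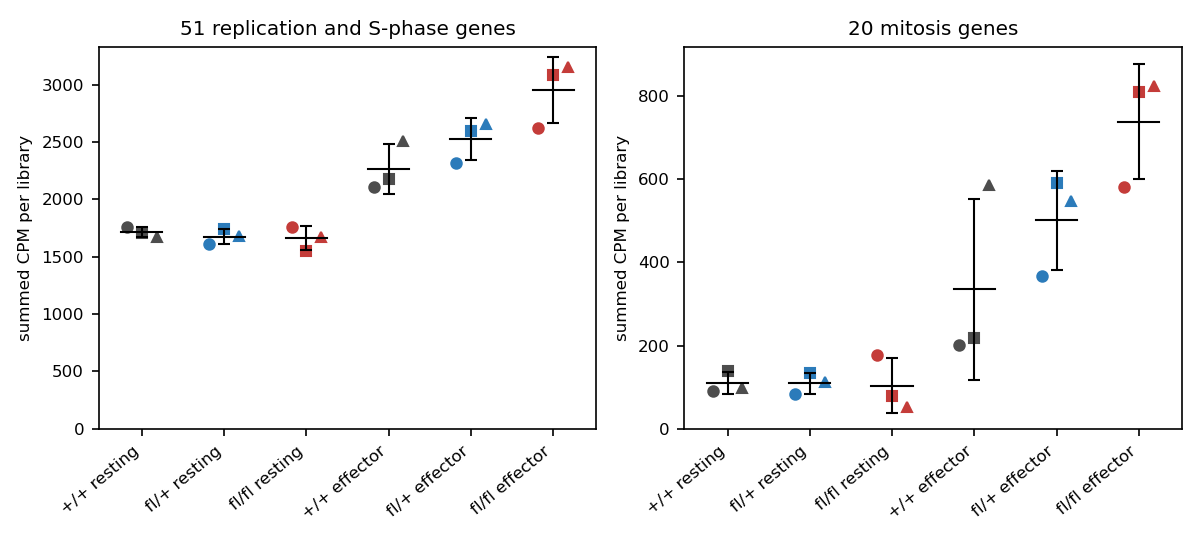
Summed CPM of the 51 replication and S-phase genes (left) and of 20 mitosis genes (right) in each of the 18 libraries, by group; circles, squares and triangles are replicates 1, 2 and 3, and bars show the mean and SD of 3 libraries. All effector sums of the 51 genes, from 2105 CPM upward, lie above all resting sums, which reach 1760 CPM.

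Between effector and resting cells 12 members rose in +/+, 26 in fl/+ and 30 in fl/fl, and none fell, at an adjusted p below 0.05. Over all tested genes 9.49% were called higher in +/+, 9.72% in fl/+ and 5.01% in fl/fl, and 16.0%, 16.3% and 6.34% were called in either direction. In fl/fl fewer genes were thus called over the whole table than in +/+, while more of the members were. The median log2 change of the members was 0.54 in +/+, 0.74 in fl/+ and 0.98 in fl/fl, where that of all tested genes was -0.01 in each. Over the 45 genes that met the rule in resting libraries alone, 12, 24 and 27 rose and the medians were 0.53, 0.65 and 0.89 in +/+, fl/+ and fl/fl. Every effector library exceeded every resting library in 27 members in +/+ and 43 in fl/fl, against 16.6% and 11.7% of tested genes.

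The 3 state comparisons share no library. Of the 12 genes that rose in +/+ 11 also rose in fl/+ and fl/fl, and all 26 of fl/+ were among the 30 of fl/fl. Mcm3, Mcm5, Mcm6, Lig1, Rrm1, Rrm2, Tyms, Tk1, Dut, Uhrf1 and Chaf1a rose in all 3 genotypes. A further 15 rose in fl/+ and fl/fl: Cdc6, Mcm2, Mcm4, Mcm7, Mcm10, Cdc45, Gins2, Pola1, Pole, Rfc4, Rfc5, Fen1, Hells, E2f8 and Brca1. In the main fit Pcna, Ccne2, Tipin and Clspn passed in fl/fl alone, and Orc6 in +/+ alone. Under some alternative settings Pcna, Ccne2 and Clspn also passed in fl/+, Clspn in +/+ and Orc6 in fl/fl. That a gene passed in one genotype and not in another does not show a difference between them, and no member passed the test of that difference. For 20 members no state comparison passed in the main fit, though several of them, such as Rfc3, passed under alternative settings.

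The +/+ count leans on single libraries. Without +/+ effector replicate 3, 5 members rose and 1, E2f2, fell. The count was 7 without +/+ resting replicate 3, and 5 of the 12 genes (Mcm6, Lig1, Rrm2, Tk1 and Uhrf1) passed under each of the 6 omissions. In fl/+ the count ran from 21 to 29 and 19 of the 26 genes passed under each omission, and in fl/fl it ran from 25 to 30 and 22 of the 30 genes did.

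**Figure D2:**
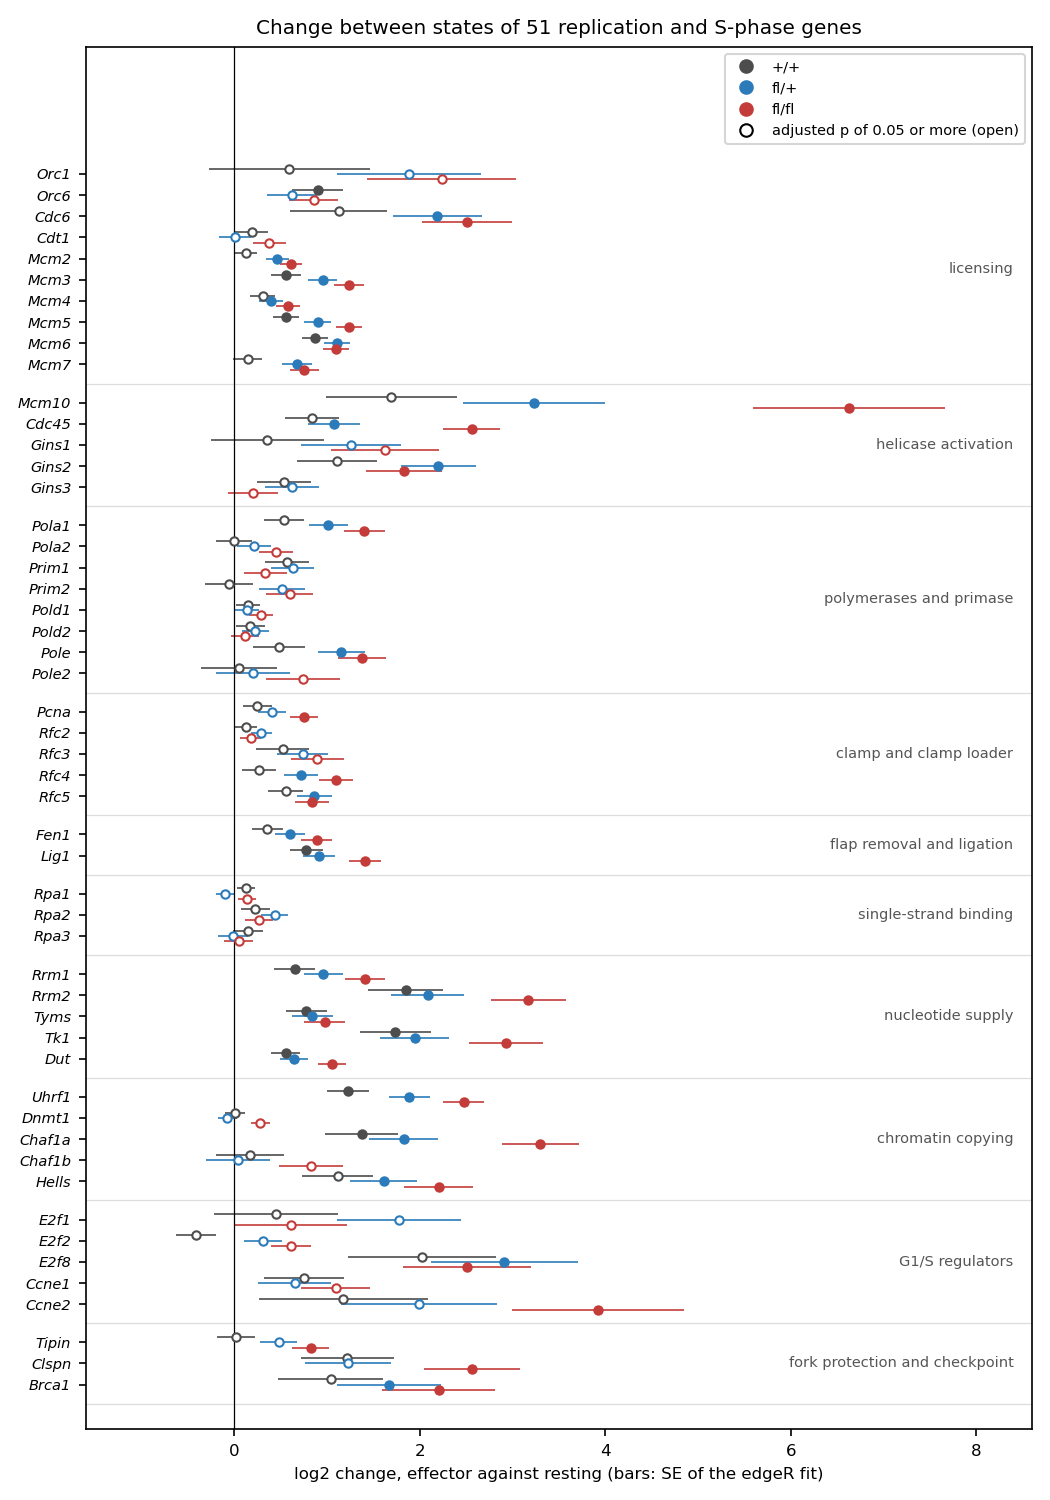
Log2 change from resting to effector cells of each of the 51 genes, grouped by role, in +/+ (grey), fl/+ (blue) and fl/fl (red); bars are standard errors of the edgeR fit, and filled circles have an adjusted p below 0.05. Genes of nucleotide supply are filled in all 3 genotypes and genes of single-strand binding are open in all 3.

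Letters of an E2F motif were more frequent in promoters of the members than of all tested genes. The genes were not chosen by sequence, but E2F factors are known to switch on many of them. The share is therefore not independent of the choice. E2F letters, meaning TTTCCCGC, TTTGGCGC, TTTCGCGC or TTTGCCGC on either strand, occurred within 250 bases before to 50 bases after a RefSeq start site (GRCm38.p6) in 18 of the 43 members with an entry. That is 41.9% of the members, against 4.99% of 7975 tested genes and 2.61% of 27025 genes with an entry. CCAAT, the letters bound by NF-Y, was in 62.8% of members, 43.7% of tested genes and 41.1% of all genes with an entry. The letters TTTGAA or TTCGAA, known from promoters of mitotic genes, were in 23.3%, 16.5% and 21.7%. For these letters the share of members was thus near that of all genes with an entry and above that of tested genes. A match describes the letters and not a bound site.

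The changes of members with and without E2F letters overlapped. Of the 18 genes with the letters 5 rose in +/+, 9 in fl/+ and 10 in fl/fl, and of the 25 without them 7, 14 and 15 rose. Median log2 changes were 0.55 and 0.55 in +/+, 0.90 and 0.65 in fl/+, and 1.16 and 0.89 in fl/fl, with and without the letters, and the ranges in fl/fl were 0.20 to 2.56 and 0.05 to 6.63. Of the 25 matches 11 lay at or after the start site, as in Mcm3, Lig1 and Cdt1.

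Shown here are stretches around the E2F letters of genes that rose in both fl/+ and fl/fl, limited to 4 that lie before the start site and touch no exon annotated by GENCODE M21. Each is from RefSeq on GRCm38.p6, written 5′ to 3′ along the strand of the gene, with the E2F letters of either strand in capitals. Mcm5 lies at chr8:75109316-75109407 on the plus strand, Mcm6 at chr1:128359706-128359855 on the minus strand, Pola1 at chrX:93632246-93632333 on the minus strand, and Uhrf1 at chr17:56304088-56304175 on the plus strand. The Uhrf1 stretch falls inside the GENCODE span of the gene, between exons. In Mcm5 and in the first run of Mcm6 a match on each strand overlaps the other, so the capitals run over both.
Mcm5: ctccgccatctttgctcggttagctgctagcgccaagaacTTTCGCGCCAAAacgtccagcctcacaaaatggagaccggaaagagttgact
Mcm6: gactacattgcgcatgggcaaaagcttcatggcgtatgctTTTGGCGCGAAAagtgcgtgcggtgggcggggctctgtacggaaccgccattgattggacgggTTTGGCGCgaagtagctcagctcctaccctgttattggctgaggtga
Pola1: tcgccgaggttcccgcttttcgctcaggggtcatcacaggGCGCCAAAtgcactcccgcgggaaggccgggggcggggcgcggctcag
Uhrf1: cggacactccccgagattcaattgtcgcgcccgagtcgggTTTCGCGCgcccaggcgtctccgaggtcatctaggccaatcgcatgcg

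**Figure D3:**
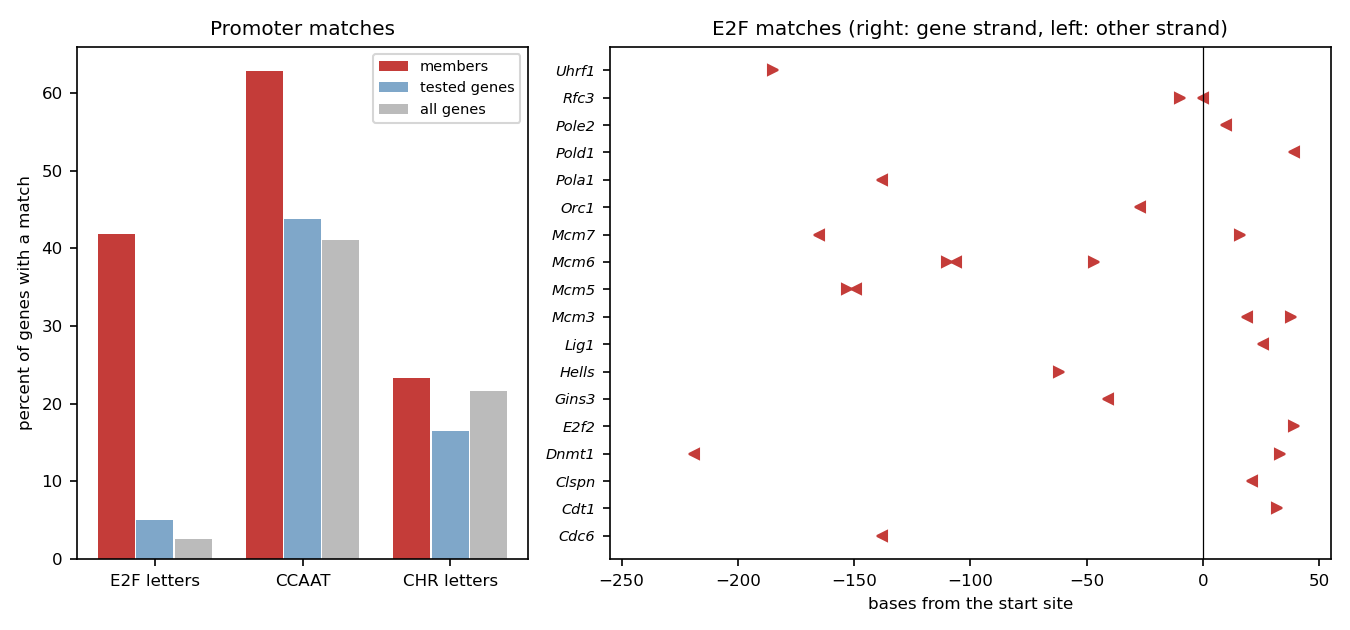
Left, percent of genes with E2F letters, CCAAT or the letters TTTGAA or TTCGAA (CHR letters) within the promoter window, for 43 members, tested genes and all genes with an entry. Right, position of each E2F match in the 18 member genes that have one, in bases from the start site, with triangles pointing right for the strand of the gene and left for the other strand; 41.9% of members have a match.

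Licensing genes rose in part, with 4 of 10 higher in +/+, 7 in fl/+ and 7 in fl/fl. Mcm6, a subunit of the helicase ring, drew the most counts of them. It was at 149, 148 and 106 (+/+), 118, 132 and 105 (fl/+) and 121, 97.1 and 114 (fl/fl) CPM in resting cells. Its effector values were 238, 283 and 218 (+/+), 244, 239 and 284 (fl/+) and 219, 223 and 269 (fl/fl) CPM. All 9 effector libraries exceeded all 9 resting libraries, and the log2 change was 0.87 (SE 0.14, adjusted p = 0.000203) in +/+, 1.11 (SE 0.14, adjusted p = 3.02e-05) in fl/+ and 1.09 (SE 0.14, adjusted p = 0.0001) in fl/fl. Between genotypes its effector values overlapped.

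Mcm4 and Mcm2, subunits of the same ring, had smaller changes. Mcm4 was at 123, 107 and 89.2 (+/+), 91.5, 120.4 and 108 (fl/+) and 111, 95.6 and 109 (fl/fl) CPM in resting cells and at 124, 128 and 144 (+/+), 133, 142 and 145 (fl/+) and 135, 159 and 182 (fl/fl) CPM in effector cells. All 9 effector libraries were above all 9 resting libraries. The log2 change was 0.30 (SE 0.13, adjusted p = 0.129) in +/+, 0.40 (SE 0.13, adjusted p = 0.0414) in fl/+ and 0.58 (SE 0.13, adjusted p = 0.0103) in fl/fl, and the fl/+ call was lost in 5 of 6 omissions of one library (adjusted p up to 0.214). Without fl/fl resting replicate 2 the fl/fl call was lost as well (adjusted p = 0.0592).

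Mcm2 was one of 4 members that also differed between genotypes. In resting cells it was at 112, 82.3 and 101 (+/+), 95.8, 82.6 and 106 (fl/+) and 107, 95.6 and 108 (fl/fl) CPM, and in effector cells at 100.3, 98.3 and 124 (+/+), 133, 128 and 130.1 (fl/+) and 143, 164 and 169.9 (fl/fl) CPM. The fl/fl effector libraries were all above the fl/+ ones, and these were all above the +/+ ones, while the resting groups overlapped. From resting to effector the change was 0.12 (SE 0.12, adjusted p = 0.565) in +/+, 0.46 (SE 0.12, adjusted p = 0.0118) in fl/+ and 0.61 (SE 0.12, adjusted p = 0.00488) in fl/fl. The fl/+ change did not pass without fl/+ resting replicate 2 (adjusted p = 0.0677).

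The other ring subunits were not all called in +/+, and their changes were not tested against each other. Mcm3 and Mcm5 rose there by 0.56 and 0.56, and Mcm7 was at 0.14 (SE 0.16, adjusted p = 0.605). Their +/+ calls were lost in 3 (Mcm3, adjusted p up to 0.115) and 2 (Mcm5, up to 0.0748) of 6 omissions, among them those of +/+ resting replicate 3 and +/+ effector replicate 3. In fl/fl the changes were 1.24 for Mcm3, 1.24 for Mcm5 and 0.76 for Mcm7, all called. Per length, the FPKM of Mcm6 was 1.22 to 2.09 times that of Mcm2 in +/+ resting libraries and 2.06 to 3.36 times in +/+ effector libraries. In fl/fl these ratios were 1.18 to 1.32 and 1.59 to 1.85. FPKM scales fragments by transcript length and depth, and the pair was picked after the values were seen.

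The loading factors were called in part. Cdc6, which brings the ring to the origin, rose in fl/+ (2.19, SE 0.48, adjusted p = 0.00314) and in fl/fl (2.51, SE 0.49, adjusted p = 0.00351) and was at 1.13 (SE 0.52, adjusted p = 0.156) in +/+. Its partner Cdt1, whose protein is known to be destroyed once S phase begins, did not pass in any genotype, at 0.19, 0.01 and 0.38. Of the origin recognition complex, Orc1 was at 0.59, 1.88 and 2.24 with standard errors of 0.78 to 0.87 and did not pass. In the main fit Orc6 passed in +/+ alone (0.90, SE 0.27, adjusted p = 0.0278), a call lost in 3 of 6 omissions. It was at 0.62 (SE 0.27, adjusted p = 0.129) in fl/+ and 0.86 (SE 0.27, adjusted p = 0.0642) in fl/fl. In fl/fl Orc6 passed with the batch number as a replicate block (adjusted p = 0.0446) and with DESeq2 (0.046). It also passed there with limma on log2 FPKM (adjusted p = 0.0284 and 0.031 with pseudocounts 1 and 0.1) and with no filter on low counts (0.0216).

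**Figure D4:**
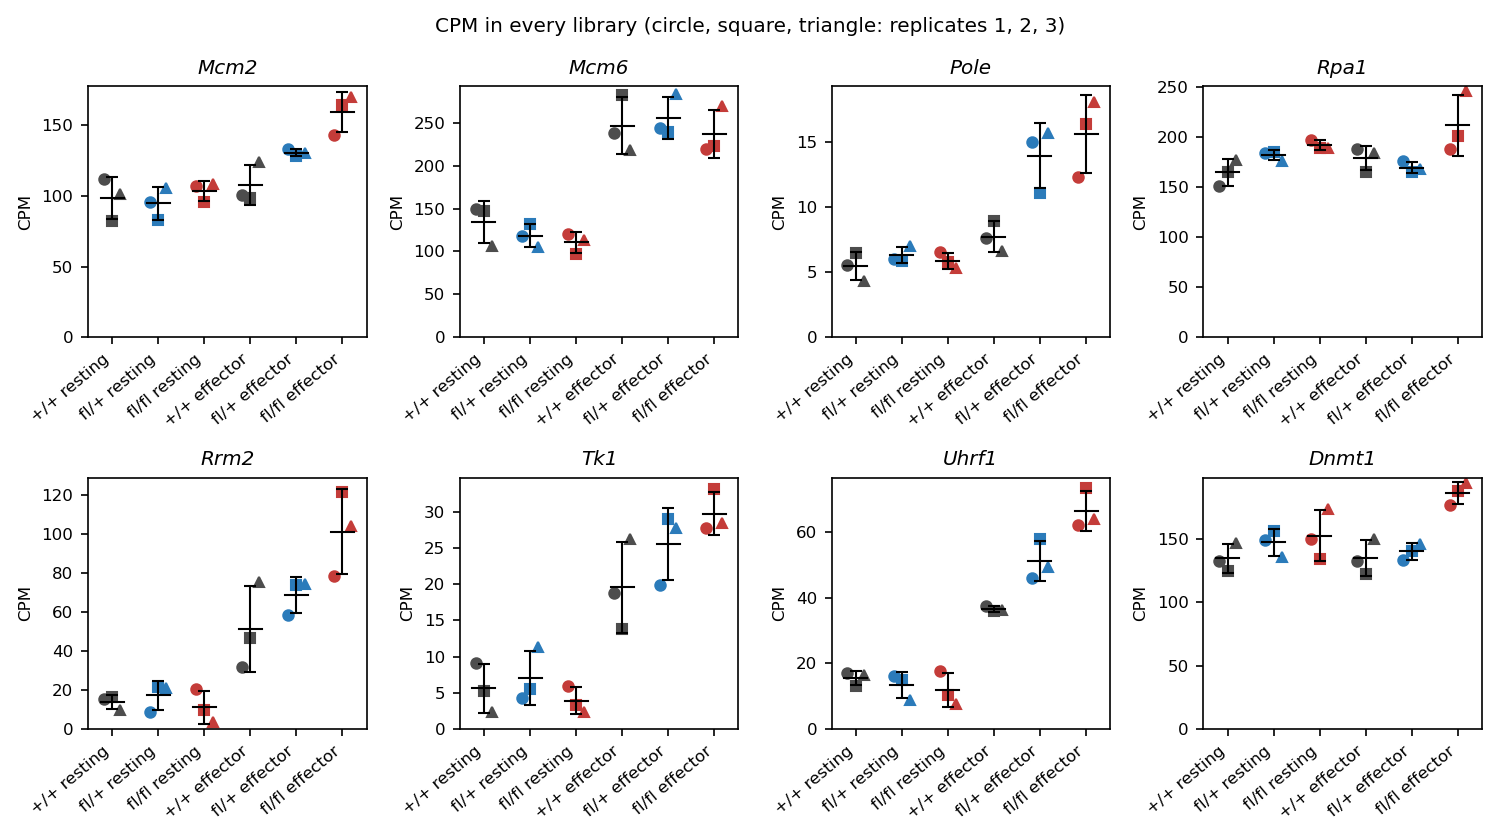
CPM in every library for 8 genes, by group; circles, squares and triangles are replicates 1, 2 and 3 and bars show the mean and SD of 3 libraries. Uhrf1 effector values rise from +/+ to fl/+ to fl/fl without overlap, while Rpa1 values of both states overlap in each genotype.

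Genes that switch the helicase on did not pass in +/+, and 3 of 5 rose in fl/+ and in fl/fl. Cdc45, which binds the ring as part of the active helicase, was at 8.63, 7.29 and 5.92 (+/+), 7.32, 8.66 and 7.04 (fl/+) and 3.88, 4.69 and 3.54 (fl/fl) CPM in resting cells. In effector libraries it stood at 9.93, 12.2 and 18.1 (+/+), 14.2, 18.9 and 15.5 (fl/+) and 15.8, 28.9 and 28.4 (fl/fl) CPM. No resting library reached an effector library, and in fl/fl effector cells replicate 1 was well below replicates 2 and 3. The log2 change was 0.84 (SE 0.29, adjusted p = 0.0578) in +/+, 1.07 (SE 0.28, adjusted p = 0.0111) in fl/+ and 2.56 (SE 0.31, adjusted p = 7.1e-05) in fl/fl. With the replicate block it passed in +/+ as well (adjusted p = 0.0481), and without fl/+ resting replicate 1 its fl/+ change did not pass (adjusted p = 0.0582).

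Mcm10, which helps the helicase and polymerase alpha start, had the highest fitted change of all members in fl/+ and in fl/fl. It was at 2.79, 1.22 and 0.395 (+/+), 0, 1.97 and 0.939 (fl/+) and 0, 0 and 0.295 (fl/fl) CPM in resting cells and at 3.38, 2.11 and 10.3 (+/+), 8.94, 7.51 and 6.77 (fl/+) and 8.86, 16.1 and 18.1 (fl/fl) CPM in effector cells. Resting libraries of fl/fl were near 0. In +/+ the states overlapped, with resting replicate 1 above effector replicate 2, and effector replicate 3 was above the other +/+ libraries. The change was 1.69 (SE 0.70, adjusted p = 0.109) in +/+, 3.23 (SE 0.76, adjusted p = 0.00479) in fl/+ and 6.63 (SE 1.03, adjusted p = 0.000406) in fl/fl. In fl/fl the 3 resting libraries held 1 count together and the effector libraries 124. That is a ratio of 120.0 per effective library size, with an exact 95% interval from 21.1 to 4778 that covers counting error only. Mcm10 met the rule of choice only with effector libraries counted. Its higher effector level is thus partly fixed by the rule, which the interval does not cover.

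The GINS subunits, which join the same helicase, were not all called, and no test between genes was made. Gins2 rose in fl/+ (2.20, SE 0.40, adjusted p = 0.000752) and fl/fl (1.83, SE 0.41, adjusted p = 0.00931) and was at 1.11 (SE 0.43, adjusted p = 0.0865) in +/+. Without fl/fl resting replicate 3 its fl/fl change had an adjusted p of 0.0532. Gins1 was at 0.35, 1.26 and 1.62 in +/+, fl/+ and fl/fl and did not pass in the main fit. Its fl/fl libraries held 3, 4 and 4 counts in resting cells and 10, 16 and 7 in effector cells. With limma on log2 FPKM it passed in fl/fl (adjusted p = 0.034 and 0.037 with pseudocounts 1 and 0.1). Gins1 met the rule of choice only with effector libraries counted. Gins3 was at 6.34, 8.1 and 6.71 (+/+), 4.31, 7.08 and 8.45 (fl/+) and 14.3, 9.38 and 8.56 (fl/fl) CPM in resting cells and at 9.08, 11.1 and 10.7 (+/+), 11.3, 10.4 and 7.5 (fl/+) and 12.1, 13.4 and 11.5 (fl/fl) CPM in effector cells. In fl/fl its resting replicate 1 was above every effector library of the group, and the changes of 0.54, 0.62 and 0.20 did not pass.

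Polymerase and primase genes were mostly not called: 0 of 8 rose in +/+, and Pola1 and Pole rose in fl/+ and fl/fl. Pold1, the catalytic subunit of polymerase delta, was at 55.8, 62 and 62.8 (+/+), 62, 57.8 and 60.1 (fl/+) and 54.9, 45.5 and 65.2 (fl/fl) CPM in resting cells and at 63.8, 64.5 and 71.7 (+/+), 65.2, 66 and 66.8 (fl/+) and 58.6, 68.8 and 78 (fl/fl) CPM in effector cells. Pold2, its accessory subunit, was at 45.9, 45 and 44.2 (+/+), 51.9, 38.6 and 53.1 (fl/+) and 51.9, 46.9 and 48.7 (fl/fl) CPM in resting cells and at 49.4, 62.9 and 41.8 (+/+), 52.5, 56.2 and 60.0 (fl/+) and 56.8, 44.3 and 59.2 (fl/fl) CPM in effector cells. In both genes states overlapped in fl/fl. Neither passed in any genotype, with changes of 0.15, 0.14 and 0.29 for Pold1 and of 0.17, 0.23 and 0.11 for Pold2 in +/+, fl/+ and fl/fl.

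Pole, the catalytic subunit of polymerase epsilon on the leading strand, was at 5.58, 6.48 and 4.34 (+/+), 6.03, 5.9 and 7.04 (fl/+) and 6.56, 5.77 and 5.31 (fl/fl) CPM in resting cells. Effector libraries held 7.6, 8.99 and 6.65 (+/+), 15.1, 11.1 and 15.7 (fl/+) and 12.3, 16.4 and 18.1 (fl/fl) CPM. The effector values of fl/+ and fl/fl were all above those of +/+. Its change was 0.48 (SE 0.28, adjusted p = 0.265) in +/+, 1.15 (SE 0.25, adjusted p = 0.00294) in fl/+ and 1.38 (SE 0.26, adjusted p = 0.00278) in fl/fl. Pole2, the second subunit of that enzyme, was at 0.05, 0.20 and 0.74 and did not pass.

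Pola1, the catalytic subunit of polymerase alpha, rose in fl/+ (1.01, SE 0.21, adjusted p = 0.00218) and fl/fl (1.40, SE 0.22, adjusted p = 0.00073) and was at 0.53 (SE 0.21, adjusted p = 0.101) in +/+. The other subunits of the complex that lays primers did not pass. Pola2 was at -0.0033, 0.21 and 0.45, the primase subunit Prim1 at 0.57, 0.63 and 0.33, and the other primase subunit Prim2 at -0.05, 0.52 and 0.60 in +/+, fl/+ and fl/fl. Prim1 passed in fl/+ with the replicate block (adjusted p = 0.0381).

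Of the clamp and its loader, 0 of 5 genes rose in +/+, 2 in fl/+ and 3 in fl/fl. Pcna, the sliding clamp, was at 86.3, 67.7 and 69.5 (+/+), 69.4, 75.6 and 81.7 (fl/+) and 85, 70.0 and 72 (fl/fl) CPM in resting cells. Its effector values were 76, 82.5 and 109 (+/+), 84.4, 112 and 104 (fl/+) and 109, 135 and 139.6 (fl/fl) CPM. The +/+ states overlapped, while the fl/fl effector libraries were all above the +/+ effector libraries. The change was 0.25 (SE 0.15, adjusted p = 0.298) in +/+, 0.41 (SE 0.15, adjusted p = 0.0707) in fl/+ and 0.75 (SE 0.15, adjusted p = 0.00486) in fl/fl. In fl/+ Pcna passed with no filter on low counts (adjusted p = 0.0334) and in a fit of the compared groups alone (0.0371). It also passed there with limma on log2 FPKM (adjusted p = 0.0332 and 0.0352 with pseudocounts 1 and 0.1).

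Rfc2, a subunit of the loader, was at 72.8, 59.2 and 62.8 (+/+), 61.2, 64.9 and 53.5 (fl/+) and 67.4, 61 and 69.4 (fl/fl) CPM in resting cells and at 69.3, 67.1 and 77.2 (+/+), 77.1, 69.7 and 73.3 (fl/+) and 69.4, 81.5 and 73.1 (fl/fl) CPM in effector cells. Its changes of 0.13, 0.29 and 0.18 did not pass. Rfc4 rose by 0.72 in fl/+ and 1.10 in fl/fl, and Rfc5 by 0.86 and 0.84. Without fl/fl resting replicate 2 the fl/fl call of Rfc5 was lost (adjusted p = 0.0583). Rfc3 did not pass in the main fit at 0.52, 0.74 and 0.90. In fl/fl it passed with DESeq2 (adjusted p = 0.0392), limma on log2 FPKM (0.0324 and 0.0363 with pseudocounts 1 and 0.1) and no filter on low counts (0.0136). In fl/+ Rfc3 passed with no filter (adjusted p = 0.0304) and in a fit of the compared groups alone (0.0333).

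Lig1 and Fen1, which join and trim the pieces of the lagging strand, both rose in fl/+ and fl/fl. Lig1, the ligase, was at 23.6, 22.7 and 26.5 (+/+), 23.5, 23.6 and 21.1 (fl/+) and 20.9, 19.1 and 23.6 (fl/fl) CPM in resting cells. In effector libraries it stood at 35.9, 38.1 and 51 (+/+), 37.2, 38.3 and 53.7 (fl/+) and 51.3, 54 and 65.9 (fl/fl) CPM. Every effector value was above every resting value, and the fl/fl effector libraries were above the +/+ effector libraries. The change was 0.78 (SE 0.18, adjusted p = 0.00408) in +/+, 0.91 (SE 0.17, adjusted p = 0.000975) in fl/+ and 1.41 (SE 0.17, adjusted p = 8.32e-05) in fl/fl.

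Fen1, the flap nuclease, was at 41.1, 46.2 and 30.8 (+/+), 37.3, 47.2 and 30.5 (fl/+) and 30.1, 38.2 and 36.6 (fl/fl) CPM in resting cells and at 48.2, 48.6 and 54.7 (+/+), 52.1, 66.3 and 56.8 (fl/+) and 59.2, 71.8 and 63.5 (fl/fl) CPM in effector cells. States did not overlap here either. The change was 0.36 (SE 0.17, adjusted p = 0.165) in +/+, 0.60 (SE 0.16, adjusted p = 0.0141) in fl/+ and 0.89 (SE 0.17, adjusted p = 0.00283) in fl/fl. The fl/+ call was lost in 3 of 6 omissions (adjusted p up to 0.0675).

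The 3 subunits of replication protein A, which coats single-stranded DNA in replication and in repair, did not pass in any genotype. Rpa1 was at 151, 166 and 178 (+/+), 185, 185 and 176 (fl/+) and 198, 189 and 189.5 (fl/fl) CPM in resting cells and at 188, 165 and 184 (+/+), 176, 165 and 168 (fl/+) and 188, 201 and 247 (fl/fl) CPM in effector cells. Rpa2 was at 36.8, 38.9 and 46.2 (+/+), 35.5, 52.3 and 35.7 (fl/+) and 44.1, 45.8 and 44.3 (fl/fl) CPM in resting cells and at 49, 44.4 and 48 (+/+), 46.5, 58.5 and 61.7 (fl/+) and 51.8, 58.4 and 51.4 (fl/fl) CPM in effector cells. Rpa3 was at 23.1, 20.7 and 16.6 (+/+), 22.6, 20.5 and 21.1 (fl/+) and 26.5, 20.9 and 23 (fl/fl) CPM in resting cells and at 20.7, 22.7 and 24.4 (+/+), 23, 20.7 and 20.1 (fl/+) and 23.5, 26.8 and 22.4 (fl/fl) CPM in effector cells. In Rpa1 and Rpa3 the states overlapped in each genotype. Changes in +/+, fl/+ and fl/fl were 0.13, -0.10 and 0.13 for Rpa1, with standard errors of 0.10, then 0.23, 0.43 and 0.27 for Rpa2, and 0.15, -0.01 and 0.05 for Rpa3. With the replicate block Rpa2 passed in fl/+ (adjusted p = 0.0361). Rpa1 had the lowest change of all members in fl/+ and Rpa3 the lowest in fl/fl.

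Nucleotide supply was the role in which all 5 genes rose in each genotype. Rrm1, the large subunit of ribonucleotide reductase, which makes deoxynucleotides, was at 43.9, 40.1 and 64 (+/+), 49.3, 51.2 and 42.3 (fl/+) and 65, 34.6 and 36.3 (fl/fl) CPM in resting cells. Effector libraries held 69.5, 70.3 and 92 (+/+), 80.9, 102 and 96.8 (fl/+) and 95.6, 135 and 135 (fl/fl) CPM. The states did not overlap, and fl/fl effector replicates 2 and 3 were higher than replicate 1. The change was 0.65 (SE 0.22, adjusted p = 0.0471) in +/+, 0.96 (SE 0.21, adjusted p = 0.00355) in fl/+ and 1.41 (SE 0.22, adjusted p = 0.000605) in fl/fl. The +/+ call was lost in 5 of 6 omissions (adjusted p up to 0.179).

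Rrm2, the small subunit, whose level is known to follow S phase, changed more. It was at 15.5, 16.2 and 9.87 (+/+), 8.62, 21.6 and 21.1 (fl/+) and 20.3, 9.38 and 3.54 (fl/fl) CPM in resting cells and at 31.7, 46.5 and 75 (+/+), 58.1, 73.8 and 74.3 (fl/+) and 78, 121 and 104 (fl/fl) CPM in effector cells. Each fl/fl effector library was above all fl/+ and +/+ effector libraries. The change was 1.85 (SE 0.41, adjusted p = 0.00339) in +/+, 2.08 (SE 0.39, adjusted p = 0.00093) in fl/+ and 3.17 (SE 0.41, adjusted p = 0.000103) in fl/fl. Per length, the FPKM of Rrm2 was 0.289 to 0.754 times that of Rrm1 in +/+ resting libraries and 0.855 to 1.53 times in +/+ effector libraries, and 0.183 to 0.586 and 1.46 to 1.67 times in fl/fl.

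Tk1, the salvage kinase for thymidine, was at 9.13, 5.27 and 2.37 (+/+), 4.31, 5.51 and 11.3 (fl/+) and 5.96, 3.25 and 2.36 (fl/fl) CPM in resting cells and at 18.8, 13.7 and 26.2 (+/+), 19.9, 29 and 27.8 (fl/+) and 27.8, 33.2 and 28.4 (fl/fl) CPM in effector cells. The lowest effector value, in +/+, was above the highest resting value, in fl/+. Its change was 1.74 (SE 0.39, adjusted p = 0.00347) in +/+, 1.95 (SE 0.37, adjusted p = 0.00106) in fl/+ and 2.93 (SE 0.40, adjusted p = 0.000174) in fl/fl. Rrm2 and Tk1 are given in full after their values were seen.

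Tyms, thymidylate synthase, was at 30.4, 25.1 and 43 (+/+), 29.7, 38.2 and 27.2 (fl/+) and 31.3, 44.4 and 22.1 (fl/fl) CPM in resting cells and at 50.1, 54.4 and 64.7 (+/+), 53.1, 67.3 and 50.3 (fl/+) and 61.9, 74.1 and 53.8 (fl/fl) CPM in effector cells. Here too the states did not overlap. The change was 0.78 (SE 0.22, adjusted p = 0.0204) in +/+, 0.84 (SE 0.22, adjusted p = 0.0107) in fl/+ and 0.98 (SE 0.22, adjusted p = 0.0103) in fl/fl. Leaving out one library ended the call in 3 of 6 cases in +/+ (adjusted p up to 0.0871), without fl/+ resting replicate 1 in fl/+ (adjusted p = 0.0581) and without fl/fl resting replicate 3 in fl/fl (adjusted p = 0.0688). Dut, which removes dUTP so that uracil stays out of DNA, rose by 0.55, 0.64 and 1.05, and its +/+ call was lost in 4 of 6 omissions (adjusted p up to 0.07).

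Genes that copy chromatin onto new DNA ran from no measured change to some of the larger ones, with 2 of 5 higher in +/+ and 3 in fl/+ and fl/fl. Uhrf1, which reads half-methylated DNA and recruits the maintenance methyltransferase, was at 17, 13 and 16.6 (+/+), 16.2, 15 and 8.92 (fl/+) and 17.6, 10.5 and 7.67 (fl/fl) CPM in resting cells. Its effector values were 37.6, 35.9 and 36.2 (+/+), 46.2, 58 and 49.6 (fl/+) and 62.2, 73.5 and 64.1 (fl/fl) CPM. The 3 effector groups followed each other without overlap, +/+ lowest and fl/fl highest. The change was 1.23 (SE 0.22, adjusted p = 0.000682) in +/+, 1.89 (SE 0.22, adjusted p = 1.75e-05) in fl/+ and 2.47 (SE 0.22, adjusted p = 5.7e-06) in fl/fl, the last being the lowest adjusted p of any member.

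Dnmt1, that methyltransferase, was at 133, 124 and 147 (+/+), 149, 157 and 136 (fl/+) and 150.3, 134 and 174 (fl/fl) CPM in resting cells and at 133, 122 and 149.7 (+/+), 134, 140.3 and 146 (fl/+) and 177, 188 and 194 (fl/fl) CPM in effector cells. States overlapped in +/+ and fl/+, and in fl/fl each effector library was above each resting one. No state comparison passed, at 0.0043, -0.07 and 0.28 (SE 0.11, adjusted p = 0.131) in +/+, fl/+ and fl/fl.

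Chaf1a and Chaf1b encode partners in the complex that places histones on new DNA. Chaf1a rose in each genotype, by 1.37 (a call lost in 3 of 6 omissions), 1.83 and 3.30. Chaf1b was at 0.17, 0.04 and 0.83 and did not pass. Hells, a chromatin remodeller needed for DNA methylation, rose in fl/+ (1.61, SE 0.36, adjusted p = 0.00372) and fl/fl (2.20, SE 0.37, adjusted p = 0.00136). In +/+ Hells was at 1.11 (SE 0.39, adjusted p = 0.0547), and there it passed with the replicate block (adjusted p = 0.0474) and with DESeq2 (adjusted p = 0.0266).

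Of the regulators of the step from G1 to S, 0 of 5 rose in +/+, E2f8 rose in fl/+, and E2f8 and Ccne2 rose in fl/fl. E2f1, E2f8 and Ccne2 met the rule of choice only with effector libraries counted, so a higher effector level in them is partly fixed by the rule. E2f2, an activating E2F factor, was at 25.6, 29.2 and 27.6 (+/+), 18.5, 24 and 26.8 (fl/+) and 17.6, 21.6 and 14.5 (fl/fl) CPM in resting cells. In effector libraries it stood at 15.8, 19 and 27.7 (+/+), 22.2, 30.3 and 32.4 (fl/+) and 27, 26.8 and 27.8 (fl/fl) CPM. In +/+ it had the lowest change of all members, -0.41 (SE 0.21, adjusted p = 0.219), and its effector replicate 3 lay within the resting values. Without that library E2f2 fell by 0.68 (adjusted p = 0.0462). In fl/+ it was at 0.31 and in fl/fl at 0.61 (SE 0.22, adjusted p = 0.106). E2f1, another activating factor, was at 0.45, 1.78 and 0.61 with standard errors of 0.60 to 0.67 and did not pass.

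E2f8, a repressor that E2F factors themselves induce, was at 0.254, 2.84 and 0.395 (+/+), 1.29, 0.394 and 0 (fl/+) and 1.19, 3.25 and 0.295 (fl/fl) CPM in resting cells and at 3.8, 1.59 and 7.39 (+/+), 3.64, 6.99 and 6.53 (fl/+) and 9.06, 8.05 and 9.07 (fl/fl) CPM in effector cells. It had the highest change of all members in +/+, 2.03 (SE 0.80, adjusted p = 0.0867), where +/+ effector replicate 2 lay within the resting values. The change was 2.91 (SE 0.79, adjusted p = 0.0127) in fl/+ and 2.51 (SE 0.69, adjusted p = 0.0302) in fl/fl. Its fl/fl call was lost in 4 of 6 omissions (adjusted p up to 0.151), and its fl/+ call without fl/+ resting replicate 2 (adjusted p = 0.0547).

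Ccne1, one of the cyclins E that start S phase, was at 2.79, 7.29 and 5.92 (+/+), 4.52, 9.05 and 7.51 (fl/+) and 8.05, 8.66 and 9.74 (fl/fl) CPM in resting cells and at 4.65, 9.51 and 12.9 (+/+), 11.9, 12.9 and 7.01 (fl/+) and 15.2, 25.5 and 15.7 (fl/fl) CPM in effector cells. In fl/fl the effector libraries were above the resting ones and above all effector libraries of the other genotypes. Its changes of 0.76, 0.65 and 1.09 (SE 0.37, adjusted p = 0.0892) did not pass, and with the replicate block the fl/fl change did (adjusted p = 0.0466). Ccne2, the other cyclin E, rose in fl/fl by 3.92 (SE 0.93, adjusted p = 0.0121) and was at 1.17 in +/+ and 1.99 in fl/+. Its fl/fl call was lost without fl/fl resting replicate 2 or 3 (adjusted p up to 0.0688).

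The 3 genes of fork protection and the S-phase checkpoint rose in fl/fl, and Brca1 also in fl/+. Tipin, part of the complex that steadies stalled forks, was at 29.4, 23.5 and 27.6 (+/+), 20.5, 27.9 and 24.4 (fl/+) and 24.8, 21.3 and 20.1 (fl/fl) CPM in resting cells. Effector libraries held 26.8, 22.7 and 31.8 (+/+), 22.7, 40.1 and 38.5 (fl/+) and 36, 40.3 and 41.7 (fl/fl) CPM. The +/+ states overlapped and the fl/fl states did not. The change was 0.02 (SE 0.20, adjusted p = 0.975) in +/+, 0.48 (SE 0.20, adjusted p = 0.11) in fl/+ and 0.82 (SE 0.20, adjusted p = 0.0168) in fl/fl. Without fl/fl resting replicate 2 or 3 the fl/fl call was lost (adjusted p up to 0.0821).

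Brca1, which acts in repair by recombination and in fork protection, was at 4.06, 1.62 and 5.53 (+/+), 3.23, 4.33 and 0.47 (fl/+) and 4.47, 0.722 and 0.295 (fl/fl) CPM in resting cells and at 8.45, 6.87 and 7.76 (+/+), 6.79, 9.58 and 10.9 (fl/+) and 7.71, 10.7 and 7.86 (fl/fl) CPM in effector cells. All effector values were above all resting values at these low levels. The change was 1.04 (SE 0.56, adjusted p = 0.231) in +/+, 1.66 (SE 0.56, adjusted p = 0.0464) in fl/+ and 2.20 (SE 0.61, adjusted p = 0.0315) in fl/fl, and each of the calls in fl/+ and fl/fl was lost in 5 of 6 omissions (adjusted p up to 0.142 and 0.144). Clspn, the adaptor that lets the checkpoint kinase Chek1 be activated, rose in fl/fl (2.56, SE 0.52, adjusted p = 0.00491) and was at 1.22 in +/+ and 1.23 in fl/+.

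Genes lower at rest had larger changes, which the rule fixes in part, since 6 members low at rest met it only through effector libraries. Across the other 45 genes, the fl/fl log2 change and the mean FPKM in +/+ resting libraries, which share no library, had a Spearman rho of -0.62, and across all 51 one of -0.669. This describes genes that are not independent and that differ in counting error. Of the 45, the 23 with the higher resting FPKM had a median change of 0.75 and the 22 with the lower one of 1.40. The exceptions lay on both sides: Rrm2, at 6.41 FPKM, changed by 3.17, and Gins3, at 2.92 FPKM, was at 0.20.

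**Figure D5:**
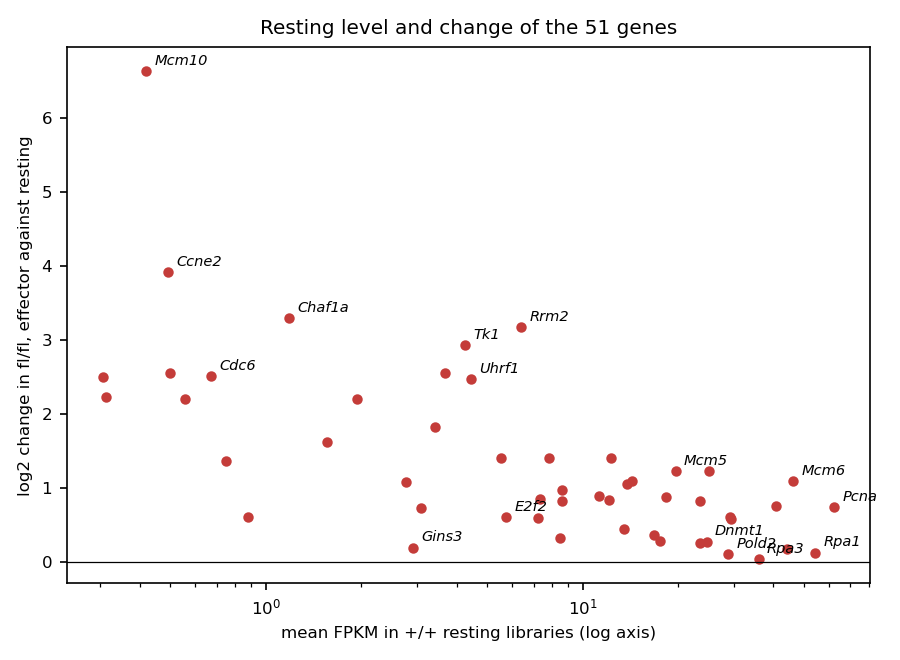
Mean FPKM in the 3 +/+ resting libraries (log axis) against the log2 change from resting to effector in fl/fl, for the 51 genes. Rrm2 and Tk1 lie high, and abundant genes such as Rpa1 and Rpa3 lie near 0 change; Orc1, Mcm10, Gins1, E2f1, E2f8 and Ccne2 met the rule of choice only through effector libraries, which fixes their place in part.

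Between genotypes, 4 members were higher in fl/fl than in +/+ effector cells and none was lower, where 1.17% of tested genes were called higher and 2.81% in either direction. They were Mcm2 (0.56, SE 0.12, adjusted p = 0.0194), Pole (1.00, SE 0.25, adjusted p = 0.038), Uhrf1 (0.86, SE 0.20, adjusted p = 0.0252) and Dnmt1 (0.46, SE 0.11, adjusted p = 0.0268). All fl/fl effector libraries were above all +/+ effector libraries in 27 members, against 10.3% of tested genes. The median log2 difference of the members, which are not independent of each other, was 0.46, and 49 of 51 differences were positive. The median over all tested genes was 0.01. Within batches, the summed CPM in fl/fl effector cells was 1.25, 1.41 and 1.26 times that in +/+.

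These 4 calls rest on few libraries. No member was called without +/+ effector replicate 1 or 2 or without fl/fl effector replicate 2 or 3, while 12 were called without +/+ effector replicate 3 and 11 without fl/fl effector replicate 1. Pole was also lost without +/+ effector replicate 3 (adjusted p = 0.072). With the batch number as a replicate block 8 members were higher, the 4 above and Mcm3, Mcm7, Pcna and Lig1, where 2.3% of tested genes were called higher and 5.19% in either direction. In a fit of these 2 groups alone 1 of 49 tested members, Uhrf1, was called. Mitosis genes differed in the same comparison, with 2 of 20 called higher and all 20 differences positive (median 1.19). Of the 4 regulatory T cell markers 2 were lower in fl/fl (median -0.54), and the 4 T cell markers had a median of -0.23 with none called. The part of these shifts in the result was not tested.

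The mean level in effector cells ran in the order +/+, fl/+, fl/fl in 36 of 51 members (70.6%), against 22.8% of tested genes, and in the opposite order in none, against 22.1%. In resting cells 7 members (13.7%) rose in that order and 20 (39.2%) fell, against 17.7% and 18.4% of tested genes. These orders describe means of genes that are not independent, as +/+ effector replicate 3 alone was the highest of its group in 38 of 51 members. The tallies therefore do not count separate pieces of evidence for an order of genotypes. Neighbouring groups often overlapped: fl/fl was above fl/+ in every effector library in 11 members, against 7.88% of tested genes.

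No member passed in the other genotype comparisons. Between fl/fl and +/+ resting cells edgeR called 0 members, with 7 at an unadjusted p below 0.05, where 0.696% of tested genes were called and 8.21% were at an unadjusted p below 0.05. Their median difference was -0.15, and 34 of 51 were negative. In fl/+ against +/+ edgeR called 0 members in resting cells (0 unadjusted; 0.0847% and 6.29% of tested genes) and 0 in effector cells (6 unadjusted; 0.00941% and 5.47%). In fl/fl against fl/+ it called 0 in resting cells (3 unadjusted; 0.0282% and 4.83%) and 0 in effector cells (7 unadjusted; 0.677% and 11.8%), where DESeq2 called 1 of 50 members, Dnmt1, and 1.74% of all genes. In the other 4 of these comparisons DESeq2 called 0 of the members to which it gave an adjusted p: 48 in fl/fl against +/+ resting cells (1.3% of all genes called), 50 and 34 in fl/+ against +/+ resting and effector cells (0.384% and 0.252%), and 51 in fl/fl against fl/+ resting cells (0.0564%).

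The test of whether the state change itself differed between genotypes called no member with the filter on low counts and all libraries. For fl/fl against +/+ edgeR and DESeq2 called 0 members, and 20 had an unadjusted p below 0.05, against 0% of tested genes called and 8.97% unadjusted. The lowest adjusted p was 0.301. With no filter on low counts 6 members (Mcm3, Mcm10, Cdc45, Rrm1, Rrm2 and Uhrf1) were called, where 1.26% of 19512 genes were, and without fl/fl effector replicate 1 Cdc45 was called. In 46 of 51 members the change was larger in fl/fl, against 50.6% of tested genes, and in 33 it rose from +/+ to fl/+ to fl/fl, against 20.3%. The median difference between fl/fl and +/+ was 0.63 where all tested genes had one of 0.01. For fl/+ against +/+ edgeR and DESeq2 called 0 members, and 3 had an unadjusted p below 0.05, against 0.0188% and 3.23% of tested genes, with a median of 0.24. These tests share the +/+ libraries, and the members are not independent of each other.

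Fewer of the genes around the members were called. Of 48 other replication genes 5 rose and 1 fell in +/+, 10 rose and 1 fell in fl/+, and 13 rose and 1 fell in fl/fl, with medians of 0.14, 0.27 and 0.22. The share that rose was near the 9.49% of all tested genes in +/+ and above the 9.72% and 5.01% in fl/+ and fl/fl. The gene that fell was Mcmbp each time, which binds MCM proteins outside the ring, at -0.67 (SE 0.12, adjusted p = 0.00068), -0.60 (SE 0.12, adjusted p = 0.00133) and -0.60 (SE 0.12, adjusted p = 0.00456). In fl/fl high changes among them were those of the nuclease Exo1 (3.22, SE 0.77, adjusted p = 0.0137) and the checkpoint kinase Chek1 (2.59, SE 0.49, adjusted p = 0.00278).

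Of 23 tested genes of G1/S control outside the members 5 rose and 2 fell in +/+, 8 rose and 1 fell in fl/+, and 5 rose and none fell in fl/fl. Cdkn2d, an inhibitor of the kinases Cdk4 and Cdk6, fell by 1.07 (SE 0.21) in +/+ and by 1.04 (SE 0.20) in fl/+ and was at -0.28 (SE 0.20, adjusted p = 0.485) in fl/fl. Cdk2, the partner kinase of cyclin E, fell by 0.55 (SE 0.18, adjusted p = 0.0454) in +/+ and was at -0.49 (SE 0.17, adjusted p = 0.057) in fl/+ and -0.06 (SE 0.17, adjusted p = 0.895) in fl/fl. In fl/fl the largest changes were those of the repressor E2f7 (2.91, SE 0.81, adjusted p = 0.0302), the inhibitor Cdkn2c (2.28, SE 0.67, adjusted p = 0.0429) and the kinase subunit Cks1b (1.98, SE 0.33, adjusted p = 0.00122). Of the 20 mitosis genes 12 rose in +/+, 18 in fl/+ and 20 in fl/fl, with medians of 1.67, 2.22 and 2.71, each above the median of the replication genes.

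Some counts are uncertain. Exons of 10 members share bases with a gene on the other strand, and the strand setting of the counting is not given in the sources used here, so reads of both genes cannot be told apart there. The longest overlaps are 2758 bases of Gins2 with Gse1, 1862 of Chaf1a with Ubxn6 and 952 of Rfc2 with Lat2, and the others are Orc6, Mcm7, Rfc4, Rfc5, Fen1, Tk1 and Ccne2. Counts were fractional in at least 9 of 18 libraries in Pola2, Tyms, E2f1, Mcm5, Rfc4 and Ccne2, meaning that reads were shared out between this gene and others.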

How the data were processed

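RNA-seq libraries of 18 sorted regulatory T cell samples were analysed from 2 tables made by the authors. Per the submitters' processing notes, reads went through STAR 2.6.0 and RSEM 1.2.8 with build mm10; annotation and strand setting are not given in the sources used. The authors deposited expected counts per gene symbol, estimated by RSEM, which divides reads that match several genes, so 29.4% of the nonzero values were fractional; they were rounded. The authors also deposited FPKM values, used here for levels per length and in alternatives. Totals ran from 1658073 to 5756903 expected counts, and precision falls with the count of a gene.

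Genes were kept with filterByExpr by group, scaled by TMM and fitted with edgeR 4.0.16 (R 4.3.3) as 6 group means over 18 libraries, with quasi-likelihood tests and Benjamini-Hochberg adjustment over 10630 genes. Calls are at an adjusted p below 0.05. DESeq2 1.42.0, limma 3.58.1 on log2 FPKM with a pseudocount of 1 or 0.1, other filters and scaling, the batch number as a replicate block, fits of the compared groups alone and omission of each library were alternatives. The scripts were tested on simulated data. The batch number pairs libraries by label. Deviations from group means of libraries that share number and genotype correlated at 0.14 to 0.35 (mean 0.21, 9 pairs). Those that share the number across genotypes had a mean of 0.07 (36 pairs), and those of the same genotype with different numbers one of -0.11 (18 pairs). The main fit used no pairing. The replicate block gave each number the same effect in all genotypes, so pairing within a genotype was not fitted.

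The members and lists were chosen with earlier results of these data known. Library values are printed for the 2 members of each role with the highest mean CPM, for members called between genotypes and for the highest and lowest change of each state comparison; members called in no state comparison are given with their changes, and other genes where they fell in a state comparison or had one of the 3 highest fl/fl changes of their list. The order of genotypes, subunit ratios, levels against changes, the 45 members that meet the rule in resting libraries, within-batch ratios, exon overlaps and the choice of promoter stretches were added after seeing the data. Motifs were searched in RefSeq promoters of GRCm38.p6, matched by symbol for 43 of 51 members (52 promoters). The targeted gene and another gene covered by the naming rule are not reported here.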

Additional observations from a re-analysis of the deposited data

How the results depend on the processing

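Most counts of members called moved by more than 1.5 times in few settings or in none. The count for fl/fl against +/+ in effector cells was the exception. It moved in most settings, among them the omission of each single library of these groups. In +/+ between states the count was 20 with limma on log2(FPKM + 1), against 12. For fl/fl against +/+ in effector cells it was 14 with no filter on low counts, 1 with limma on log2(FPKM + 0.1), 1 in a fit of the compared groups alone and 8 with the replicate block, against 4. With no filter it was 1 for fl/fl against +/+ in resting cells (Mcm10), 1 for fl/fl against fl/+ in effector cells (Rrm2) and 6 for the difference of state changes between fl/fl and +/+, each against 0. For fl/fl against fl/+ in effector cells it was also 1 with DESeq2 and 1 with the replicate block. Without one library, counts ran from 6 (5 higher and E2f2 lower) to 13 in +/+, 21 to 29 in fl/+ and 25 to 30 in fl/fl between states, from 0 to 12 for fl/fl against +/+ in effector cells, and from 0 to 1 for fl/fl against fl/+ in effector cells and for the difference of state changes between fl/fl and +/+, both 1 without fl/fl effector replicate 1. The cause of these shifts was not tested. Fewer libraries entered the omissions and the fits of the compared groups alone. With no filter more genes entered, 19512 against 10630. The replicate block gave 14, 28 and 32 members between states and 0 in the comparisons not named here. Besides the calls named in the report it changed no other call of a member between states.

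Of 157 pairs of member and comparison, 146 had a value in every setting and the other 11 were not tested in the groups compared alone. None that was called changed sign, and 40 sign changes occurred among the others, the furthest from 0 that of Pole2 in +/+ (-0.36 without +/+ effector replicate 3). In +/+ Pola2 was at -0.0033 and became 0.016 with DESeq2 size factors, 0.011 with the members' own filter, 0.017 with DESeq2, 0.098 and 0.10 with limma (pseudocounts 1 and 0.1) and 0.017 in the compared groups alone, and Prim2 became 0.020 and 0.023 with limma. In fl/+ Cdt1 became -0.0072 with the replicate block, Rpa3 0.078 and 0.080 with limma, and Dnmt1 0.031 and 0.032 with limma. Without one library, the +/+ ranges that crossed 0 were -0.038 to 0.245 for Mcm7, -0.0013 to 0.71 for Gins1, -0.11 to 0.13 for Pola2, -0.22 to 0.18 for Prim2, -0.36 to 0.24 for Pole2, -0.078 to 0.071 for Dnmt1, -0.056 to 0.39 for Chaf1b and -0.11 to 0.11 for Tipin. In fl/+ they were -0.061 to 0.17 for Cdt1, -0.016 to 0.48 for Pola2, -0.021 to 0.37 for Pole2, -0.069 to 0.043 for Rpa3 and -0.18 to 0.21 for Chaf1b, and in fl/fl -0.028 to 0.15 for Rpa3.

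Depth limits the least abundant members most: in Orc1, E2f1, Gins1, Ccne2 and Mcm10 groups hold few counts, standard errors reach 1.03, and a change that did not pass may not have been detectable.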
